A study of Arabidopsis thaliana with 3 samples.

Results

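The WRKY transcription factors of Arabidopsis thaliana are plant proteins that bind W-box elements in promoters through a domain carrying the conserved WRKYGQK peptide and a zinc finger. They act largely in defence, senescence and nutrient responses, and many bind the promoters of other WRKY genes or of their own gene. WRKY6, a group IIb member, is known from senescence and pathogen responses and as a repressor of the phosphate exporter gene PHO1, and it has been described as acting negatively on its own promoter and on that of the closely related WRKY42. The family was taken as every probe set whose annotation names 1 gene with a symbol of WRKY followed by digits. This gave 6 genes by symbol, and ZAP1, which carries WRKY1 as a synonym, was added as the seventh member. The 7 members, each with 1 probe set, stand among 13513 probe sets naming 1 gene and 22746 Arabidopsis probe sets in all. The gene table held 71 WRKY genes, so most of the family was not analysed here.

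RNA from whole seedlings aged 7 days was hybridised to oligonucleotide arrays, with 1 array per genotype. The overexpressor was the line 35S:WRKY6-9, called 35S:WRKY6 below, in which the 35S promoter of cauliflower mosaic virus, active in most tissues, drives WRKY6. The knockout was wrky6-1, and the wild type was of the Columbia ecotype. The labels give no other allele or agent and no ecotype for the 2 lines, and in all 3 genotypes the seeds had 2 days in the cold before seedlings were grown on MS agar at 22 °C under constant light. Each line is a single line, no genotype was replicated, and how many seedlings went into an RNA sample is not given in the sources used here, so each fold compares 1 array with 1 other, without any replicate check or p-value.

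The signal is the deposited intensity on a linear scale, which is not comparable between probe sets. Signals under 45.5, the 30th percentile of all Arabidopsis probe sets over the 3 arrays, were set to that floor ahead of the log2 ratios, so that a fold against a signal under the floor is a bound, given as "at least". To be called measured, a probe set needed the larger of the 2 signals compared to reach 174.6, the 50th percentile, and to be called it needed also a floored log2 ratio of at least 1 in either direction (2-fold). The only measure of precision came from genes with several probe sets, whose disagreement gave an SD of 0.25 for a single log2 ratio of 35S:WRKY6 to wild type (45 genes), 0.23 for wrky6-1 to wild type (47 genes) and 0.27 between the lines (46 genes). This SD covers neither plants nor extraction nor hybridisation. In whole seedlings a lower signal can come from less RNA per cell or from fewer cells that make it, and these cannot be told apart.

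The median signal was 169 in 35S:WRKY6, 173 in wrky6-1 and 182 in wild type. Leaf and root genes had signals above the floor on all arrays. The leaf genes RCA and LHCB4.2 were the 2 of 7 listed leaf markers with a named probe set. They summed to 39827 in 35S:WRKY6, 39260 in wrky6-1 and 39264 in wild type. The near-equal sums hold opposite differences, since the log2 ratios to wild type were 0.34 in 35S:WRKY6 and 0.35 in wrky6-1 for RCA and -0.40 and -0.47 for LHCB4.2. The root genes PYK10, EXPA7 and EXPA18 were the 3 of 7 listed root markers with a named probe set. They summed to 18057, 18511 and 14519 on the same arrays, nearly all of it PYK10. Since signals are not comparable between probe sets, neither the leaf nor the root sums measure tissue content. EXPA7 and EXPA18, root hair expansin genes, had log2 ratios to wild type of 0.92 and 0.77 in 35S:WRKY6. In wrky6-1 these ratios were -0.18 for EXPA7, which was not measured there, and 0.13 for EXPA18. PYK10 had log2 ratios to wild type of 0.30 in 35S:WRKY6 and 0.36 in wrky6-1. No listed marker with a named probe set was at 0. The annotation left 8730 probe sets unlisted, so a gene without a named probe set may still be on the array.

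The members covered the family unevenly. Group IIb, to which WRKY6 belongs, had 3 of its 8 genes represented (WRKY6, WRKY42 and WRKY47). Group I, whose proteins carry a pair of WRKY domains, had 2 of 15 (WRKY20 and ZAP1), group IIe had 1 of 7 (WRKY22) and group III had 1 of 13 (WRKY53). Groups IIa, IIc and IId had none among their 3, 17 and 7 genes. By their locus codes 5 of the 7 lie on chromosome 4, where the gene table has 16 WRKY genes.

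WRKY6 (AT1G62300) itself had a signal of 9245 in 35S:WRKY6, 12.1 in wrky6-1 and 322 in wild type. It was therefore 28.7-fold higher in the overexpressor than in wild type, while the knockout stood at least 7.08-fold below wild type. No probe set among the 12139 measured had a higher ratio of 35S:WRKY6 to wild type. The knockout ratio is a bound set by the floor, a log2 ratio of -2.82 that was -4.03 with the floor at the 20th percentile and -1.74 at the 40th. WRKY6 was no longer measured in that comparison with the filter at the 70th percentile or on the mean of the 2 arrays. WRKY6 was the gene altered in both lines, so its ratios check the labels. Where its probe set lies relative to the insertion of wrky6-1 was not analysed here.

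WRKY47 (AT4G01720), a group IIb member like WRKY6, was low in the overexpressor alone. Its signal was 40.7 in 35S:WRKY6, 355 in wrky6-1 and 254 in wild type. The 35S:WRKY6 signal was under the floor, which makes WRKY47 at least 5.58-fold lower there relative to wild type (log2 ratio -2.48). This bound depends on the floor, and with the floor at the 40th percentile it was -1.40. In wrky6-1 its log2 ratio to wild type was 0.48, short of the 2-fold threshold, and 40.8% of measured probe sets had a ratio at least as large in size. The filter on signals bears on this value, because with the mean of the 2 arrays required to reach 174.6 WRKY47 was no longer measured in 35S:WRKY6 against wild type.

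WRKY42 (AT4G04450), the group IIb member named above as a known WRKY6 target, was at or near the floor throughout. Its signal was 7.02 in 35S:WRKY6, 50.1 in wrky6-1 and 4.32 in wild type. The knockout array was the only one of the 3 on which it passed the floor, and it did so narrowly, so WRKY42 was not measured in any comparison and no fold is given. Its log2 ratio of wrky6-1 to wild type was set by the floor, at 0.14 with the floor used here and 1.34 with the floor at the 20th percentile.

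WRKY22 (AT4G01250), a group IIe member known from flagellin signalling downstream of a MAP kinase cascade and from dark-induced senescence, was low in the knockout. Its signal was 408 in 35S:WRKY6, 77.4 in wrky6-1 and 282 in wild type, above the floor on all 3 arrays. The knockout array had it 3.65-fold lower relative to wild type (log2 ratio -1.87), and 196 of 12222 measured probe sets had a lower ratio. In 35S:WRKY6 its log2 ratio was 0.53, not called, and 28.6% of measured probe sets had a ratio at least as large in size. The last ratio was 0.14 when arrays were scaled to the hybridisation spike-ins, a scaling added after seeing the data.

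WRKY53 (AT4G23810), a group III regulator of leaf senescence, had a signal of 121 in 35S:WRKY6, 78.1 in wrky6-1 and 104 in wild type. All 3 values lay above the floor and under the filter, so it was not measured. Its log2 ratios to wild type were 0.22 in 35S:WRKY6, which turned to -0.17 under spike-in scaling, and -0.41 in wrky6-1.

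The group I members differed little between arrays. WRKY20 (AT4G26640) had a signal of 412 in 35S:WRKY6, 409 in wrky6-1 and 418 in wild type, a span of 1.02-fold. Of the 12505 probe sets that reached the filter on any array, 99.8% spanned at least as much. ZAP1 (AT2G04880), known as WRKY1 and described in nitrogen and light signalling, had 440, 523 and 473 on the same arrays, a span of 1.19-fold that 84.8% of these probe sets matched or passed. With the arrays scaled to the spike-ins, ZAP1 and WRKY20 had log2 ratios of 35S:WRKY6 to wild type of -0.50 and -0.41, in place of -0.10 and -0.02.

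**Figure D1:**
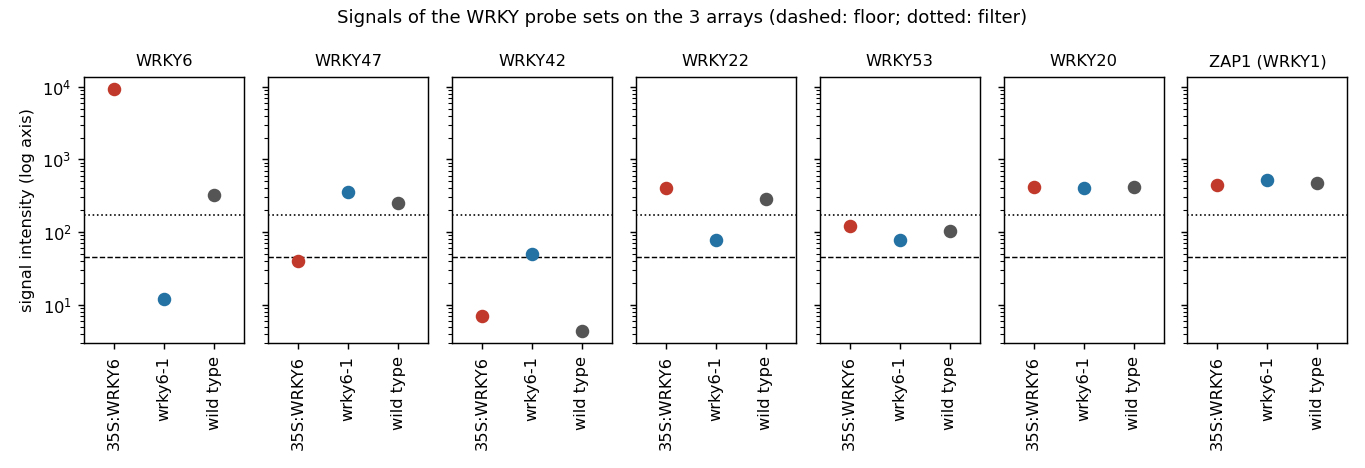
Signal intensity (log axis) of each WRKY probe set on the arrays of 35S:WRKY6, wrky6-1 and wild type, 1 point per array, with the floor of 45.5 dashed and the filter of 174.6 dotted. WRKY6 was at 9245 in 35S:WRKY6 and under the floor in wrky6-1, WRKY47 was under the floor in 35S:WRKY6 alone, WRKY22 was lowest in wrky6-1 at 77.4, and WRKY20 and ZAP1 were nearly level.

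In 35S:WRKY6 against wild type 5 of the 7 members were measured, and WRKY6 was called higher and WRKY47 lower. Of all 12139 measured probe sets 9.4% were called, 3.79% higher and 5.61% lower, so that 40.3% of the calls were higher, a share that was 51.6% under median scaling and 11.1% under spike-in scaling. In wrky6-1 against wild type the same 5 were measured and WRKY6 and WRKY22 were called lower, while 12.9% of all 12222 measured probe sets were called, 5.16% higher and 7.77% lower. Leaving WRKY6 out, 1 of 4 measured members was called in each comparison. A count of 1 in 4 is too small to be set apart from shares of this size. WRKY22 and WRKY47 are dim, and among probe sets whose higher signal lay between the 50th and 70th percentile 9.65% were called in 35S:WRKY6 and 11.4% in wrky6-1. Among measured probe sets naming 1 gene the shares were 9.55% and 12.6%. The median log2 ratio of the 5 measured members was -0.02 in 35S:WRKY6, as it was over all measured probe sets, and -0.03 in wrky6-1, where it was -0.01 over all. Leaving WRKY6 out, the medians were -0.06 and 0.06. Opposite ratios cancel in such medians. With WRKY6 counted, the median size was 0.53 in 35S:WRKY6, against 0.32 over all, and 0.48 in wrky6-1, against 0.39. With so few members no difference in size was tested. The 2 comparisons share the wild-type array, so a deviation of that array enters both.

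**Figure D2:**
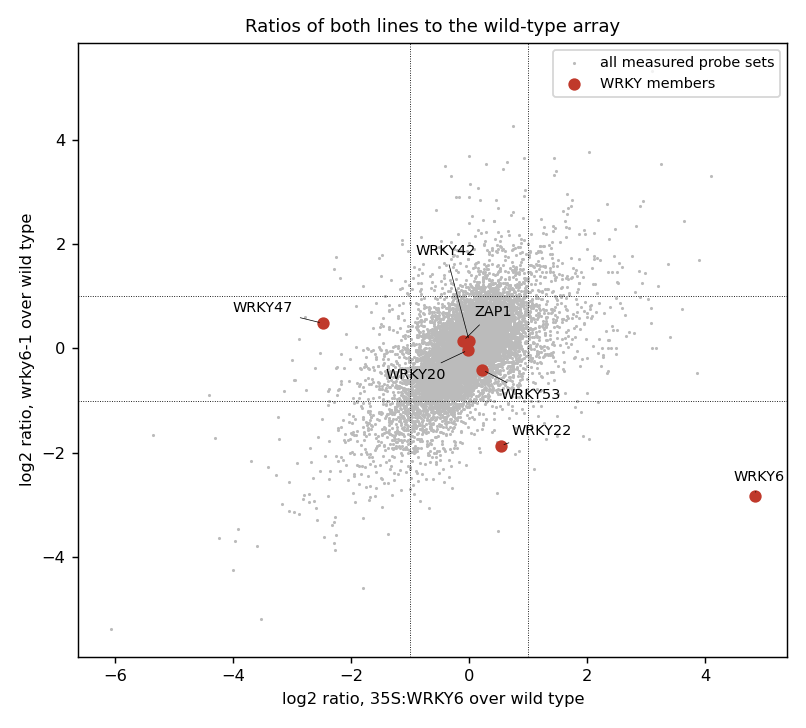
Floored log2 ratio of 35S:WRKY6 over wild type (horizontal) and of wrky6-1 over wild type (vertical) for the 12505 probe sets that reached the filter on any array (grey) and the 7 WRKY members (red), with dotted lines at 2-fold. WRKY47 lies at -2.48 and 0.48, WRKY22 at 0.53 and -1.87, and WRKY6 at 4.84 and -2.82. WRKY20, WRKY42, WRKY53 and ZAP1 lie within 2-fold on both axes.

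The direct comparison of the lines does not use the wild-type array, and it separated the members most widely. WRKY22 was higher in 35S:WRKY6, by 5.27-fold, relative to wrky6-1 (408 against 77.4, log2 ratio 2.40), and 38 of the 12000 measured probe sets had a higher ratio. WRKY47 was lower in 35S:WRKY6, at least 7.80-fold, relative to wrky6-1 (40.7 against 355), a bound set by the floor. WRKY6 differed by at least 203-fold. The root genes EXPA7 and EXPA18 were also higher in 35S:WRKY6 than in wrky6-1, with log2 ratios of 1.10, which is past 2-fold, and 0.65, while PYK10 was at -0.06, and their part in the WRKY differences was not tested. With WRKY6 counted, 3 of the 5 measured members were called, 2 higher and 1 lower, against 9.18% of all measured probe sets (4.53% higher and 4.65% lower), 9.67% of those with a higher signal between the 50th and 70th percentile and 8.55% of those naming 1 gene. The other 2 were ZAP1 at a log2 ratio of -0.25 and WRKY20 at 0.01. Leaving out WRKY6, the gene altered in both lines, 1 of 4 measured members was called higher and 1 lower. Such counts are too small to be set apart from shares of this size. Under spike-in scaling 2.07% of all measured probe sets were called higher and 10.2% lower, with the same 3 members called in the same directions.

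By the order of the 3 signals, WRKY6 and WRKY22 ran from highest in 35S:WRKY6 through wild type to lowest in wrky6-1, an order found in 13.4% of the 12505 probe sets that reached the filter on any array. WRKY47 and ZAP1 ran the opposite way, an order found in 14.8%. WRKY53, which did not reach the filter on any array, had the order of WRKY6, but with spike-in scaling its log2 ratio of 35S:WRKY6 to wild type was -0.17 and the order no longer held. WRKY20 and WRKY42 followed neither. For ZAP1 the steps of the order were small, with log2 ratios to wild type of -0.10 in 35S:WRKY6 and 0.14 in wrky6-1, both under the SD between probe sets of a gene. For WRKY53 the step of 0.22 in 35S:WRKY6 was also under it, and that of -0.41 in wrky6-1 was above it. Apart from those of WRKY6 itself, the wide steps were that of WRKY22 in wrky6-1 and that of WRKY47 in 35S:WRKY6.

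Genes with the most similar pair of ratios to wild type were sought by the Euclidean distance over the 2 log2 ratios, among 6562 single-gene probe sets measured in either comparison. WRKY22 had close matches. The nearest was PDF1.4, a plant defensin gene, at a distance of 0.33, with a signal of 418 in 35S:WRKY6, 106 in wrky6-1 and 311 in wild type. AT1G02660 at 0.36 (592, 140 and 526) and AT5G10695 at 0.41 (554, 113 and 325) came next. For WRKY47 the nearest were AT1G14580 at 0.44, with signals of 14.5, 234 and 194 in the same order, AT1G06830 at 0.51 (33.6, 385 and 338) and AT2G15020 at 0.65 (48.2, 321 and 182). The first 2 of these, like WRKY47, were under the floor in 35S:WRKY6. Their ratios of 35S:WRKY6 to wild type are therefore bounds set by the floor and the wild-type signal, so the distance partly compares wild-type signals. WRKY6 had no close match, and the nearest gene, AT3G23550 (619, 37.6 and 151), was 3.01 away, followed by AT1G15010 at 3.13 and AT2G27080 at 3.43. These distances rest on 3 arrays and on ratios that share the wild-type array, and describe likeness only.

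**Figure D3:**
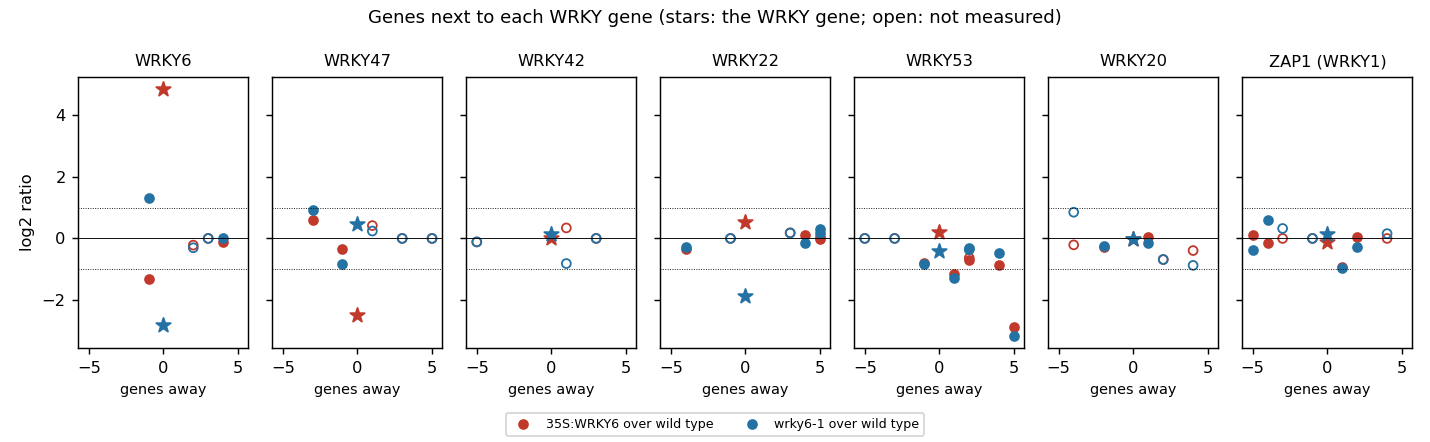
Floored log2 ratios to wild type of 35S:WRKY6 (red) and wrky6-1 (blue) for the protein-coding genes up to 5 places either side of each WRKY gene that have a named probe set. Stars are the WRKY gene, filled points are measured and open points are not. Beside WRKY6, AT1G62290 lies at -1.33 and 1.32, while around WRKY22 and WRKY47 no measured neighbour reaches 2-fold.

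The genes lying next to the members on the chromosomes were then read, a choice made after values were seen. Of the protein-coding genes up to 5 places either side, 38 probe sets were named and 19 were measured in each comparison with wild type. In 35S:WRKY6 0 of them were called higher and 3 lower, and in wrky6-1 1 was called higher and 2 lower. These counts of 3 in 19 stand beside 9.4% and 12.9% of all measured probe sets and are not a result about the neighbours as a group. AT1G62290, the gene immediately before WRKY6, had a signal of 201 in 35S:WRKY6, 1260 in wrky6-1 and 505 in wild type. It thus ran opposite to WRKY6, 2.52-fold lower in the overexpressor and 2.49-fold higher in the knockout than in wild type. AT1G62330, the other measured neighbour of WRKY6, 4 places on, had log2 ratios of -0.13 and 0.00. Around WRKY22 the 4 measured probe sets, from 3 genes, had log2 ratios between -0.33 and 0.30. Around WRKY47 the 2 measured genes were CRK, also named CROOKED and known as a subunit of an actin-nucleating complex, at -0.36 in 35S:WRKY6 and -0.83 in wrky6-1, and AT4G01700 at 0.59 and 0.93. AT4G23820, immediately after WRKY53, had 998 in 35S:WRKY6, 921 in wrky6-1 and 2237 in wild type. AT4G23870, 5 places on, had 86.2, 71.2 and 639. Both were called lower in both lines, while WRKY53 was not measured.

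The pathway genes around the WRKY factors were sparsely named. Of 12 listed flagellin signalling genes, BIK1, a receptor-associated kinase, was the 1 with a named probe set. None of the listed kinases of the MAP kinase cascade was represented. The log2 ratio of BIK1 to wild type was 0.07 in 35S:WRKY6 and -0.38 in wrky6-1. Among 4 listed VQ-motif proteins, which bind WRKY factors, IKU1 was the 1 represented, at -0.68 and -0.32. Of the 6 listed WRKY6 targets and associates only WRKY42 had a named probe set. SAG29, a sugar transporter gene and the 1 of 9 senescence genes represented, had a signal of 264 in 35S:WRKY6, 883 in wrky6-1 and 64.4 in wild type, and was called higher in both lines. STZ, a zinc finger gene and the 1 of 8 touch and wounding genes represented, had 470, 531 and 1611, and was called lower in both. Neither shared the pattern of WRKY22 or WRKY47, which were each called in 1 of the 2 comparisons with wild type.

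Among other transcription factor families named by symbol, the bZIP family had 14 probe sets and the bHLH family 5. Between the lines, 0 of 7 measured bZIP genes were called, and of 4 measured bHLH genes 1 was called higher and 1 lower. Of the 4 measured WRKY genes other than WRKY6, 1 was called higher and 1 lower. In 35S:WRKY6 against wild type, 2 of 8 bZIP and 2 of 4 bHLH genes were called, and in wrky6-1 against wild type 1 of 8 and 1 of 4. Over all measured probe sets the shares called were 9.18% between the lines, 9.4% in 35S:WRKY6 and 12.9% in wrky6-1. With so few genes per family no difference between families was tested. MYB, ERF and HB had no probe set under such symbols, and NAC had 1, which was not called.

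**Figure D4:**
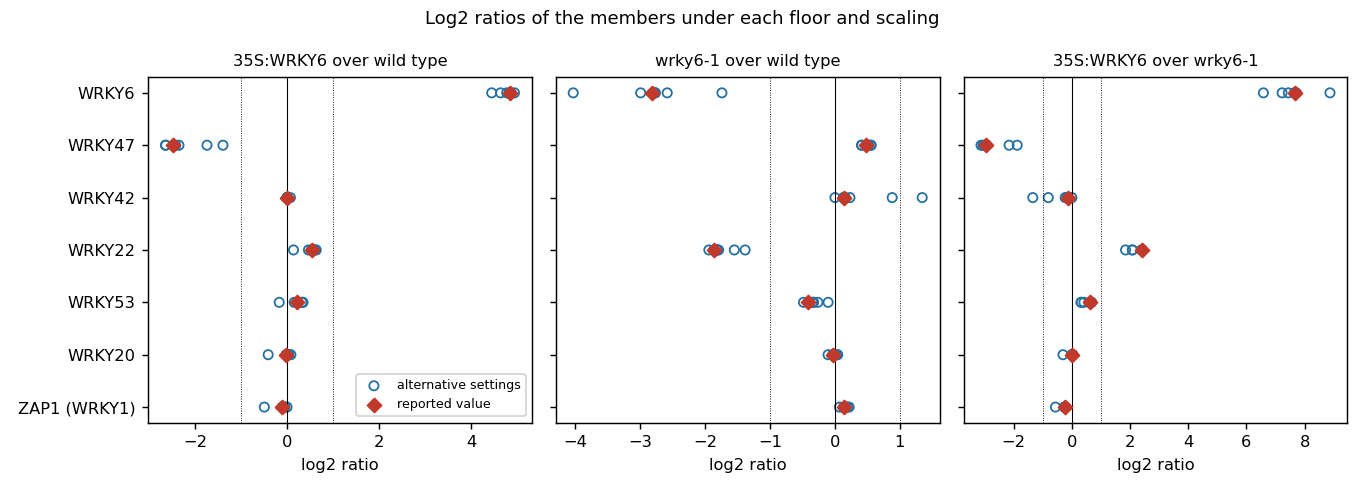
Log2 ratio of each WRKY member in the 3 comparisons, as reported (red diamonds) and under the 7 alternatives of floor and scaling (open blue circles), with dotted lines at 2-fold. WRKY6, WRKY22 and WRKY47 stayed beyond 2-fold wherever they were called, and WRKY42 spread between 0 and 1.34 in wrky6-1 against wild type.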

How the data were processed

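Transcript signals came from 3 arrays, 1 per genotype, grouped by the genotype labels. The authors deposited signal intensity per probe set, and per the submitters' processing notes GCOS 1.0 and MAS5 were used, without a stated role. The 2% trimmed means of the deposited intensity columns were 499.8 to 500.1, so no further scaling was done. Of 22810 probe sets, 64 controls were left out. Genes were named from the platform annotation, updated by Entrez identifier to TAIR10.1 (13436 matched), 503 probe sets named several genes, and 8730 were not listed. Floor, filter and fold threshold are given with the results. Ratios were computed in Python 3.11.15 with numpy 2.4.6 and checked on simulated data. No replicate existed, so no test was run, and the number of arrays limits precision.

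The members and lists were chosen with earlier results of these data known. All WRKY members were named, with up to 3 changed genes per list and the 3 nearest genes to WRKY6, WRKY22 and WRKY47. Named besides these were BIK1 and IKU1, which were not called in any comparison, the leaf and root markers, and genes beside the members on the chromosomes. Alternatives covered floor, scaling (quantile, median, lowess with statsmodels 0.14.6, spike-ins), filter and threshold. No sequence is printed, as the reference used here holds none.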

Additional observations from a re-analysis of the deposited data

Results flagged for a closer look

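The hybridisation spike-ins, transcripts added in fixed amount and outside the gene comparisons, had a median ratio of 1.31 for 35S:WRKY6 over wild type (range 1.17 to 1.39 over 9 probe sets) and 1.05 for wrky6-1 over wild type. They stood out because they carried a signal above the wild-type level. Scaling to them kept WRKY47, WRKY22 and WRKY6 called in the same comparisons, but moved the smaller ratios. The log2 ratios of 35S:WRKY6 to wild type became 0.14 for WRKY22, -0.17 for WRKY53, -0.50 for ZAP1 and -0.41 for WRKY20. Without that scaling they were 0.53, 0.22, -0.10 and -0.02. Why the spike-ins differed between arrays was not tested.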

How the results depend on the processing

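The count of called members, with the altered gene WRKY6 among them each time, was 2, 2 and 3 in 35S:WRKY6 against wild type, wrky6-1 against wild type and 35S:WRKY6 against wrky6-1. It was the same under both other floors, the pseudocount of 50, each other scaling, no filter and a 1.5-fold threshold, though at 1.5-fold the share of all measured probe sets called was 24.9%, 32.8% and 24.6%, against 9.4%, 12.9% and 9.18% at 2-fold, and under spike-in scaling 16.3%, 13.3% and 12.3%. The shares were 7.13%, 9.8% and 6.44% with the pseudocount and 6.49%, 8.33% and 6.16% without a filter. With the filter at the 70th percentile, a signal of 444, the counts were 1, 0 and 1, beside shares of 9.24%, 13.8% and 8.87%. WRKY22 and WRKY47 do not reach that signal on any array and WRKY6 reaches it in 35S:WRKY6 alone. With the mean of the 2 arrays filtered, the counts were 1 (WRKY6), 1 (WRKY22) and 3, beside shares of 8.35%, 11.8% and 8.05%. Of 147 alternative values of single members 118 moved by less than the SD between probe sets of a gene, 29 moved by more, and 0 called values changed sign. Among values not called, the sign of WRKY20 changed under some scalings in every comparison. That of WRKY53 changed under spike-in scaling in 35S:WRKY6 against wild type. WRKY47 in 35S:WRKY6 against wild type ranged from -2.65 to -1.40, the upper end with the floor at the 40th percentile, and WRKY22 in wrky6-1 from -1.94 to -1.38, the upper end with the pseudocount. Over all Arabidopsis probe sets, measured or not, spike-in scaling moved the median log2 ratio of 35S:WRKY6 to wild type to -0.18, from 0. Over the measured probe sets alone it was -0.02 without that scaling. No paired analysis was possible because each genotype has 1 array. Low signals limit WRKY42 and WRKY53.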
